A study of Mus musculus with 4 samples.

Results

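Potassium and calcium channel subunits were followed in RIP1-Tag2 (RT2) insulinomas as all genes of the array whose symbol starts with Kcn or Cacn, with Kcnj8 and Kcnj11 left out. The rule gave 104 genes of the 18091 with a value, 83 potassium channel genes and 21 calcium channel genes. It used names alone and no measured value.

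The array data come from insulinomas of RT2 mice, which carry the SV40 large T antigen under the insulin promoter and so form tumors from pancreatic beta cells. The mice received sEphB4-Alb, the soluble extracellular part of the receptor EphB4 joined to albumin, at 10 mg/kg, or the vehicle PBS, both intraperitoneally 3 times a week between the ages of 10 and 13.5 weeks. All mice had 5% sugar in their drinking water from week 12. Total RNA of 2 sEphB4-Alb tumors and 2 PBS tumors, out of 6 mice per group, was hybridised to 1 Illumina MouseRef-8 v2.0 array each, to ask how gene expression differed between treated and vehicle tumors. The study gives these mice as RT2 Dll4+/+, and its labels name both CD1 and C57/BL6 backgrounds. The tumors were whole, so fewer cells of a type and less RNA per cell cannot be told apart. Nothing says which mouse a tumor came from, so p-values measure the spread between these tumors only.

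Beta cells turn electrical activity into hormone release. Closure of potassium channels depolarises the membrane, voltage-gated calcium channels open, calcium entry drives exocytosis of insulin granules, and voltage- and calcium-gated potassium channels then repolarise the cell. Each channel is built from pore-forming (alpha) subunits and from auxiliary subunits that set its trafficking and gating.

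The median deposited signal of all genes was 159.9 and 168.7 in sEphB4-Alb tumors 1 and 2, against 135.5 and 141.6 in PBS tumors 1 and 2. A signal was called above background where it passed a limit set on each array, the most frequent signal plus 1.645 times the spread of the signals below it, a limit that about 5% of background signals pass by construction. The limit was 141.3 and 143.3 in sEphB4-Alb tumors and 134.1 and 131.2 in PBS tumors, and 11106 and 11378 genes passed it in sEphB4-Alb tumors, against 9349 and 10587 in PBS tumors. The sEphB4-Alb tumors correlated at 0.986. PBS tumor 1 stood somewhat apart, with a correlation of 0.969 with PBS tumor 2 and of 0.967 and 0.964 with sEphB4-Alb tumors 1 and 2, while PBS tumor 2 correlated at 0.985 and 0.983 with sEphB4-Alb tumors 1 and 2 (Pearson's r of log2 values across genes, which are not independent replicates). Of 12 beta-cell markers, 8 were above background on all 4 arrays and Slc2a2, the glucose transporter of mouse beta cells, on none. Their summed signal was 24382 and 31607 in sEphB4-Alb tumors, against 11017 and 12471 in PBS tumors, on arrays that were not scaled, and their median normalised log2 value was 7.004 and 6.99, against 6.88 and 6.77.

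Most channel genes lay near background. Of the 104, 29 were above background on all 4 arrays, which is 27.9%, against 8741 of all genes or 48.3%. A further 37 were above it on 1 to 3 arrays and 38 on none, and the signals of those 38 lay between 103.2 and 142.3. Per tumor, 58 and 56 of the 104 passed the limit in sEphB4-Alb tumors, against 34 and 47 in PBS tumors. These were 55.8% and 53.8%, against 32.7% and 45.2%, where all genes gave 61.4% and 62.9% in sEphB4-Alb tumors, against 51.7% and 58.5% in PBS tumors. Potassium channel genes reached all 4 arrays in 21 of 83 cases (25.3%), calcium channel genes in 8 of 21 (38.1%).

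**Figure D1:**
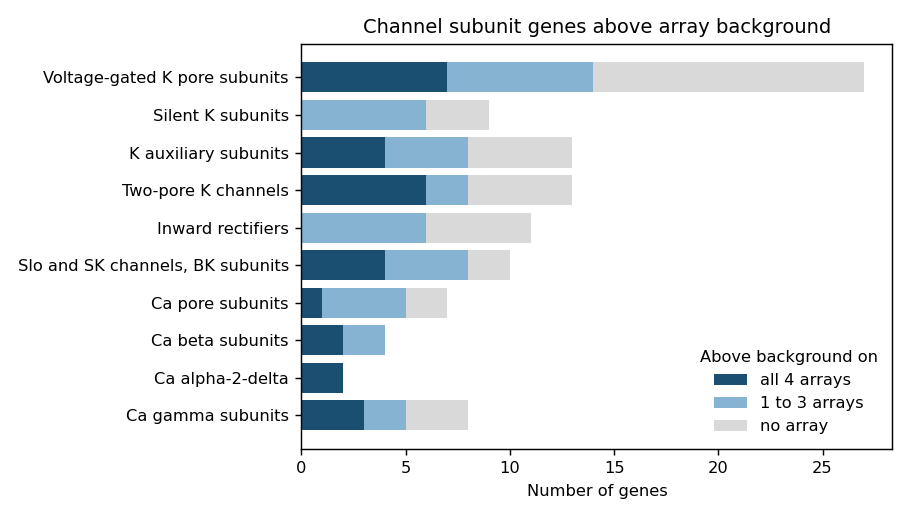
Number of channel genes (horizontal axis) in each role class (vertical axis), with each bar split into genes above the background limit on 4, on 1 to 3 and on 0 arrays. No silent potassium channel subunit and no inward rectifier of the 104 genes was above background on all 4 arrays, whereas both calcium channel alpha-2-delta subunits were. The inward rectifiers Kcnj8 and Kcnj11 were left out.

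Voltage-gated potassium (Kv) alpha subunits open on depolarisation and shorten the action potential. Of 27, 7 were above background on all 4 arrays, among them Kcna5, Kcnc1, Kcnc4, Kcnh2 and Kcnh6. Kcna10, Kcna6 and Kcnh1 passed in both sEphB4-Alb tumors and no PBS tumor, others such as Kcna3, Kcna4 and Kcnq3 on 1 to 3 arrays in other patterns, and 13 on none, among them the 3 Kcnd genes, which carry transient currents. Of the 9 silent subunits, which form channels only together with other Kv subunits, none reached all 4 arrays, 6 were above background on some, meaning 1 to 3 (Kcnf1, Kcng4, Kcns1, Kcns3, Kcnv1 and Kcnv2), and 3 on none. Of 13 auxiliary genes of Kv channels, Kcnab2, Kcnab3, Kcne1l and Kcnip3 were on all 4 arrays, Kcnab1, Kcne2, Kcnip1 and Kcnrg on some and 5 on none.

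Of 13 two-pore-domain potassium channels, which carry background currents, Kcnk1, Kcnk3, Kcnk5, Kcnk6, Kcnk12 and Kcnk13 were on all 4 arrays, Kcnk2 and Kcnk10 on some and 5 on none. Of 11 inward rectifiers, which pass potassium mainly near the resting potential, none was on all 4 arrays. Kcnj8 and Kcnj11 are not in this class, as they were left out. Kcnj2, Kcnj3, Kcnj4, Kcnj5, Kcnj9 and Kcnj16 were on some and 5 on none. In the class of large-conductance Slo channels, their beta subunits and small- and intermediate-conductance calcium-activated channels, Kcnma1, Kcnmb4, Kcnn1 and Kcnu1 were on all 4 arrays, Kcnmb1, Kcnmb2, Kcnn4 and Kcnt1 on some, and Kcnn2 and Kcnn3 on none.

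Among the 7 calcium channel alpha-1 subunits, which form the pore, Cacna1h was the sole one on all 4 arrays. Cacna1a, Cacna1b and Cacna1d passed the limit in both sEphB4-Alb tumors and 1 PBS tumor, Cacna1g in both sEphB4-Alb tumors and no PBS tumor, and Cacna1c and Cacna1f on no array. Cacna1c and Cacna1d encode the L-type pores of islet cells, and Cacna1d gave signals of 151.1 and 153.9 in sEphB4-Alb tumors and 127.2 and 137.6 in PBS tumors. Beta subunits bring the pore to the membrane. Cacnb2 and Cacnb3 were on all 4 arrays and Cacnb1 and Cacnb4 on some. Both alpha-2-delta subunits of the table, Cacna2d1 and Cacna2d3, were on all 4 arrays. Of 8 gamma subunits, several of which serve AMPA receptors in neurons, Cacng2, Cacng4 and Cacng5 were on all 4 arrays, Cacng7 and Cacng8 on 1 array, and Cacng1, Cacng3 and Cacng6 on none.

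Of a list of 40 channel genes known from islet cells, 36 were among the 104. Of these, 14 were above background on all 4 arrays, 15 on 1 to 3 and 7 on none.

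For the comparison of groups, signals were corrected for background, quantile normalised and put on the log2 scale, and the 10675 genes above background on both arrays of at least 1 group were tested with limma. Of the 104 channel genes, 54 were tested and 50 were not. Past 2-fold with an unadjusted p under 0.05, the thresholds of the study, there was 1 gene in the higher direction, Kcne1l (1.85% of the 54, against 0.946% of all genes tested), and 0 in the lower (against 0.159%). At an unadjusted p under 0.05 alone, 2 were higher, Kcne1l and Cacna1h (3.7%, against 3.75% of all genes tested), and 3 were lower, Kcnc4, Kcnc1 and Kcnj9 (5.56%, against 2.7%). Kcnj9 entered the test only through the PBS tumors, where it is brighter, so its place in this count supports nothing. Among the 29 genes above background on all 4 arrays, 2 were higher (6.9%, against 3.33% of all such genes) and 2 lower (6.9%, against 2.8%). After Benjamini-Hochberg adjustment over all 10675 genes, 0 channel genes and 0 genes of all (0%) passed 0.05 in limma, where 5 and 688 had an unadjusted p under 0.05. These counts moved when 1 tumor was left out. Such a fit leaves 1 group with a single tumor, which is assumed to vary like the other group. The p-values of such fits thus hold no spread for the single tumor, and counts of passing genes are not given.

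On the normalised scale, 10 of the 54 had both sEphB4-Alb tumors above both PBS tumors, which is 18.5% against 18.5% of all genes tested, and 7 had both below, which is 13% against 20.6%. The other 37 overlapped. Among the 29 genes above background on all 4 arrays, 2 were higher, 4 lower and 23 overlapped, beside 14.8% and 23.3% of all genes with that property. An exact two-sided permutation test of 2 tumors against 2 cannot give a p below 0.33.

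The median log2 fold change of the 29 was -0.06, with a range of -1.11 to 1.16, beside -0.05 for all genes on all 4 arrays. Of the 29, 11 were above 0 and 18 below, and 19 lay within 0.25 of 0. Their 95% intervals reached 0.51 to either side at the median, 0.39 in the narrowest and 1.95 in the widest, and 4 left out 0. The median within-group SD was 0.20, beside 0.19 for all genes on all 4 arrays.

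Quantile normalisation set the groups closer together than the deposited signals do. By deposited signal, 21 of the 29 genes were higher with sEphB4-Alb in every pair of tumors, 0 were lower and 8 overlapped, beside 75.9% and 0.229% of all genes on all 4 arrays. The median log2 difference of all tested genes was -0.01 after quantile normalisation, 0.25 after scaling of each array to its median and 0.58 with no normalisation. The medians of the 29 channel genes were -0.06, 0.15 and 0.48, beside -0.05, 0.30 and 0.63 for all genes on all 4 arrays.

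**Figure D2:**
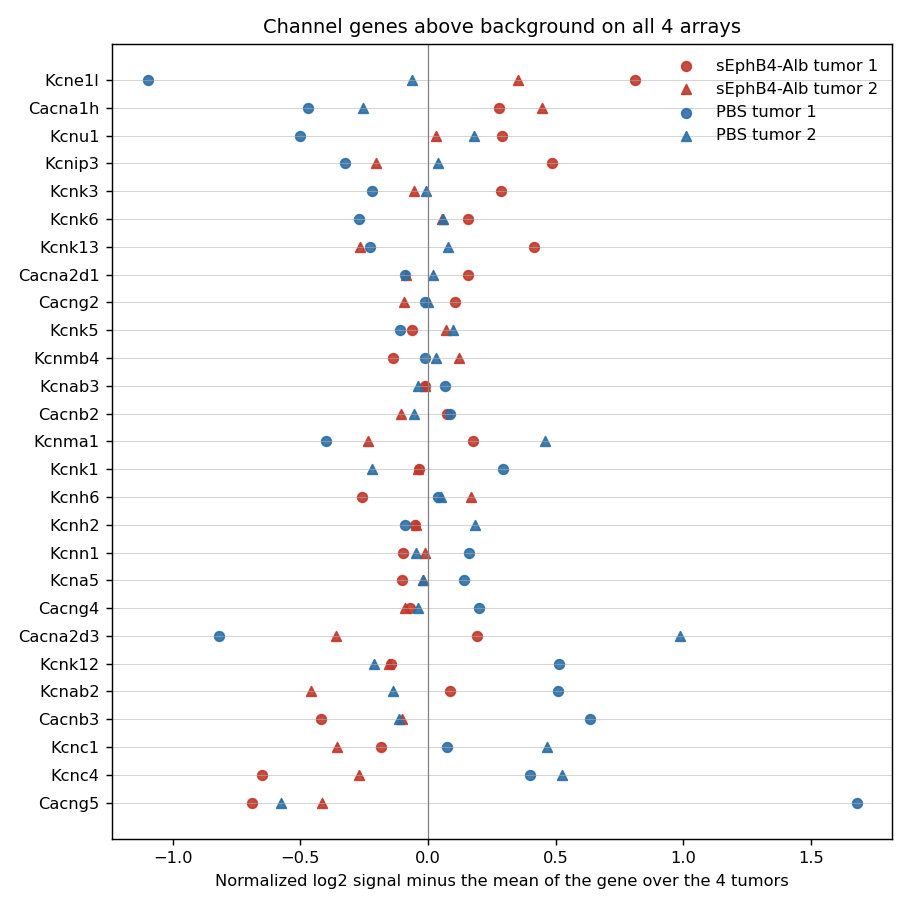
Log2 value of 27 of the 29 channel genes above background on all 4 arrays in each of the 4 tumors, as the difference from the mean of the 4 tumors (horizontal axis), with genes on the vertical axis. Over all 29, the tumor farthest from a gene's mean was sEphB4-Alb tumor 1 for 8 genes, sEphB4-Alb tumor 2 for 1, PBS tumor 1 for 16 and PBS tumor 2 for 4.

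Kcne1l, an auxiliary subunit of Kv channels that is also named Kcne5 and dampens currents of Kcnq1 channels, had the largest change among the 29. Kcnq1 itself was above background on no array. The signals of Kcne1l were 873 and 829.7 in sEphB4-Alb tumors, against 181 and 425 in PBS tumors. On the log2 scale these were 9.47 and 9.01, against 7.56 and 8.60. The groups did not overlap, and PBS tumor 1 was the lowest. The log2 fold change was 1.16 with an SE of 0.39, or 2.24-fold, with a 95% interval of 0.13 to 2.19, an unadjusted p of 0.0338 and an adjusted p of 0.743 (limma). The log2 fold change of Kcne1l lay between 0.66 and 1.66 when any 1 tumor was left out. The lowest value came from the fit that dropped PBS tumor 1. Kcne1l lies on the X chromosome. Xist, which coats the silenced X chromosome in female cells, gave signals of 398 and 914 in sEphB4-Alb tumors, against 131 and 123 in PBS tumors, and Ddx3y of the Y chromosome gave 149 and 243 in sEphB4-Alb tumors, against 327 and 724 in PBS tumors. Of the other Y genes on the array, Uty gave 173 and 173.5 in sEphB4-Alb tumors and 140.4 and 153.5 in PBS tumors, at a log2 fold change of -0.07. Jarid1d gave 135.6 and 131.1 in sEphB4-Alb tumors and 140.5 and 126.9 in PBS tumors, which overlap. Eif2s3y gave 109 and 128 in sEphB4-Alb tumors, below the 241 and 130.4 in PBS tumors. On the normalised scale all 3 lay lower in both sEphB4-Alb tumors than in both PBS tumors. For Uty the log2 values were 6.75 and 6.64 in sEphB4-Alb tumors, against 6.76 and 6.78 in PBS tumors. Jarid1d and Eif2s3y were each above background on 1 array only. The labels do not state the sex of the mice, and the study describes male mice for its tumor volumes. The Xist and Ddx3y differences lie between the same groups, so that sex-linked expression and treatment cannot be told apart for Kcne1l. An effect of sex could likewise not be told apart from treatment for any other gene compared here, and was not tested.

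Cacna1h, the pore of a T-type calcium channel that opens near the resting potential, lay above both PBS tumors in each sEphB4-Alb tumor. Its signals were 1560.4 and 2325 in sEphB4-Alb tumors, against 509.9 and 947 in PBS tumors, and its log2 values were 10.37 and 10.54, against 9.62 and 9.84. The log2 fold change was 0.72 with an SE of 0.17, or 1.65-fold, with a 95% interval of 0.28 to 1.17, an unadjusted p of 0.00911 and an adjusted p of 0.743 (limma). It lay between 0.61 and 0.84 without any 1 tumor. With no normalization between arrays, its difference from the median gene was 0.96 with an unadjusted p of 0.0699 (limma).

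Kcnc4, a Shaw-type Kv alpha subunit, and Kcnc1 of the same family, were lower after normalisation. Kcnc4 gave signals of 496 and 789 in sEphB4-Alb tumors and 507 and 889 in PBS tumors, which overlap, while its log2 values were 8.56 and 8.94 in sEphB4-Alb tumors, against 9.61 and 9.73 in PBS tumors. The log2 fold change was -0.92 with an SE of 0.20, a 95% interval of -1.43 to -0.41, an unadjusted p of 0.0059 and an adjusted p of 0.743 (limma). It lay between -1.10 and -0.74 without any 1 tumor. After median scaling its difference from the median gene was -0.69 with an unadjusted p of 0.113 (limma). Kcnc1 gave 193 and 189 in sEphB4-Alb tumors and 158 and 234 in PBS tumors, which overlap, and log2 values of 6.95 and 6.77 in sEphB4-Alb tumors, against 7.20 and 7.59 in PBS tumors. Its log2 fold change was -0.54 with an SE of 0.20, a 95% interval of -1.06 to -0.01 and an unadjusted p of 0.0467 (limma). Across the fits that each left out a tumor, it ran from -0.80 (PBS tumor 1 dropped) to -0.34 (PBS tumor 2 dropped). Dropping sEphB4-Alb tumor 1 or 2 gave -0.61 and -0.42.

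The sequences 250 bases before the transcription start are shown for Kcnc4 and Kcne1l, the genes with the most negative and the most positive fold change at an unadjusted p under 0.05, as a view of their promoters. Capitals mark the GC box, searched as GGGCGG on both strands and here read on the strand that runs against it. They were taken from RefSeq on GRCm38.p6, on the minus strand, at chr3:107458899-107459148 for Kcnc4 and at chrX:142306199-142306448 for Kcne1l, and 68% of the bases are G or C in each.
Kcnc4: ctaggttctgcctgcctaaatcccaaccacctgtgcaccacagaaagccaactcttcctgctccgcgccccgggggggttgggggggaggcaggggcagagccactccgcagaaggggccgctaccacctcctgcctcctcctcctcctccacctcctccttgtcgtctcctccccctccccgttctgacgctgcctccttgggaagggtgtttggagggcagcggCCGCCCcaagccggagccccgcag
Kcne1l: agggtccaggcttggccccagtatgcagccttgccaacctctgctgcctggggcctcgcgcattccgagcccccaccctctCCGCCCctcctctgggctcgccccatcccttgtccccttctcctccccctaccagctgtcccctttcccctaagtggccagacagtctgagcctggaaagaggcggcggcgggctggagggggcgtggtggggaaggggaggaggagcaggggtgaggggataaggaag
Of 108 windows of 77 matched channel genes, 47.2% hold a GC box, against 32.7% of the 32851 windows of all genes, and 2.78% hold TATAAA, against 12.4%. Neither Kcnc4 nor Kcne1l holds TATAAA in this window. No entry matched Cacna1h.

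**Figure D3:**
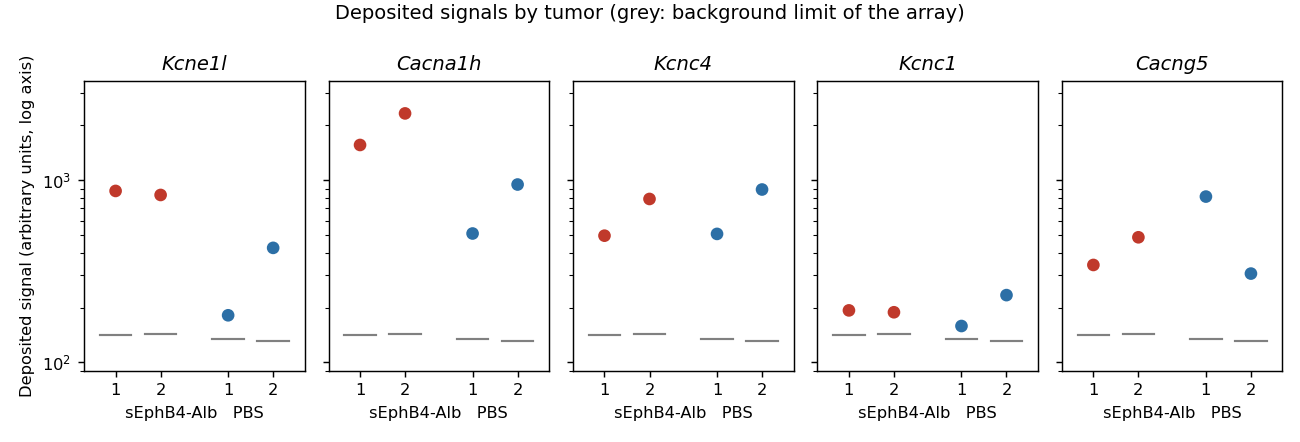
Deposited signal (vertical axis, arbitrary units on a log axis) of Kcne1l, Cacna1h, Kcnc4, Kcnc1 and Cacng5 in each tumor (horizontal axis), 1 point per tumor, with sEphB4-Alb tumors left of PBS tumors and the background limits of the arrays marked by grey lines. Kcne1l and Cacna1h lie higher with sEphB4-Alb in each tumor, and the signals of Kcnc4 and Kcnc1 overlap between groups.

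Kcnj9, a G protein-gated inward rectifier, was the sole channel gene to pass the limit in no sEphB4-Alb tumor and both PBS tumors. Its signals were 132.9 and 125.7 in sEphB4-Alb tumors, against 135.3 and 142.4 in PBS tumors, and it was at least 1.19-fold lower in sEphB4-Alb tumors (adjusted p of 0.743, limma). All 4 signals lie close to the limits. This pattern held for 0.962% of the 104 channel genes and for 0.221% of all 18091 genes.

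In the other direction, 9 genes passed the limit with sEphB4-Alb in both tumors and with PBS in neither, namely Cacna1g, Cacnb1, Kcna10, Kcna6, Kcne2, Kcnh1, Kcnj16, Kcnmb1 and Kcns1. They are 8.65% of the 104, beside 2.68% of all genes, and the limit was passed by more genes of all kinds on the sEphB4-Alb arrays. Kcnh1, an ether-a-go-go type alpha subunit, was at least 1.13-fold higher (173.5 and 163.4 in sEphB4-Alb tumors, against 128.8 and 129.2 in PBS tumors). Cacna1g, another T-type pore, was at least 1.01-fold higher (143.9 and 166.8 in sEphB4-Alb tumors, against 121.8 and 122.7 in PBS tumors) and Kcns1, a silent subunit, at least 1.00-fold. The adjusted p of these 3 was 0.747 to 0.757 in limma, and for the other 6 the bound was under 1. All 9 entered the test only through the sEphB4-Alb tumors, so these folds and p-values support nothing.

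Cacng5, a gamma subunit of the kind that serves AMPA receptors, differed by more than 2-fold and did not pass the test. Its signals were 343 and 486 in sEphB4-Alb tumors and 813 and 307 in PBS tumors, so PBS tumor 1 alone was high. The log2 fold change was -1.11 with an SE of 0.75 and an adjusted p of 0.779 (limma). It was 0.02 without PBS tumor 1 and -2.22 without PBS tumor 2, each set against a single PBS tumor.

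The following potassium channel genes did not pass the test. Kcnh2 and Kcnh6, pores of ether-a-go-go related channels, had log2 fold changes of -0.09 each, with 95% intervals of -0.54 to 0.35 and -0.62 to 0.43, and after median scaling they lay 0.11 and 0.01 above the median gene. Kcnma1, the pore of the large-conductance calcium-activated channel, was at -0.06 (-0.94 to 0.83), and Kcnn1, of the small-conductance channels, at -0.11 (-0.54 to 0.31). Kcnab2, an auxiliary subunit that binds Kv alpha subunits, gave 1382 and 1262 in sEphB4-Alb tumors and 966 and 1033 in PBS tumors, and its log2 fold change was -0.37 (-1.18 to 0.44). Kcnip3, a calcium-binding partner of Kcnd channels, gave 1139.9 and 928 in sEphB4-Alb tumors and 367 and 733 in PBS tumors, at a log2 fold change of 0.29 (-0.48 to 1.05).

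The 6 two-pore-domain genes on all 4 arrays showed log2 fold changes between -0.30 and 0.23, none with an unadjusted p under 0.05. Kcnk1 gave 997 and 1276 in sEphB4-Alb tumors and 663 and 759 in PBS tumors, at -0.07 (-0.65 to 0.51). Kcnk3, which is sensitive to acid, gave 636 and 634 in sEphB4-Alb tumors and 268 and 442 in PBS tumors, at 0.23 (-0.28 to 0.74). Kcnk6 was at 0.21 (-0.27 to 0.69), and Kcnk12 at -0.30 (-1.02 to 0.42), with signals of 152 and 158 in sEphB4-Alb tumors and 157 and 133 in PBS tumors. Kcnu1, a pH-sensitive Slo channel known from sperm, gave 336 and 334 in sEphB4-Alb tumors and 154 and 263 in PBS tumors, at 0.32 (-0.40 to 1.04). Without PBS tumor 2, Kcnk12 was at -0.67 and Kcnu1 at 0.66.

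Of the auxiliary calcium channel subunits, none passed the test. Cacna2d1, the alpha-2-delta subunit, gave 1284 and 1435 in sEphB4-Alb tumors and 592 and 1019 in PBS tumors, at a log2 fold change of 0.07 (-0.37 to 0.51). Cacnb3, a beta subunit, gave 323 and 467 in sEphB4-Alb tumors and 338 and 324 in PBS tumors. Its log2 fold change was -0.52 (-1.30 to 0.26), and -0.89 without PBS tumor 2. Cacnb2, the other beta subunit, was at -0.03 (-0.46 to 0.40). Cacng4 had log2 values of 6.96 and 6.94 in sEphB4-Alb tumors, against 7.23 and 6.99 in PBS tumors, below in both, at -0.16 (-0.59 to 0.27) and an unadjusted p of 0.38 in limma.

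**Figure D4:**
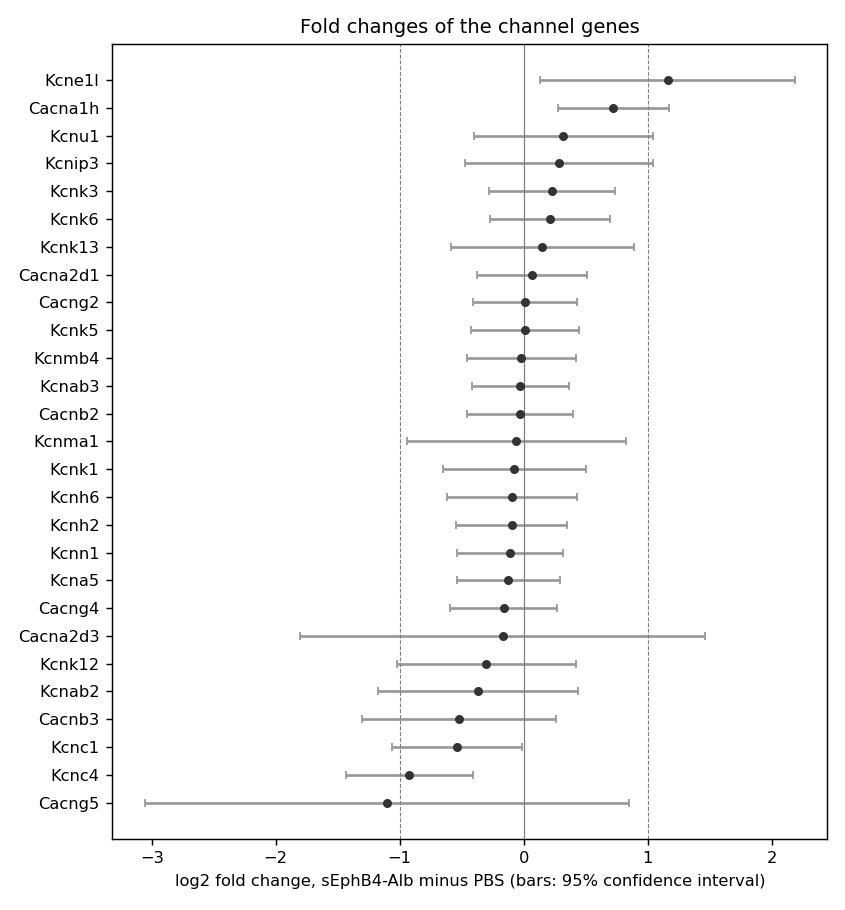
Log2 fold change, sEphB4-Alb minus PBS, of 27 of the 29 channel genes above background on all 4 arrays with its 95% interval (limma, horizontal axis), ordered by size, with dashed lines at a change of 2-fold. The intervals of Kcne1l, Cacna1h, Kcnc4 and Kcnc1 leave out 0.

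Genes of proteins that work with these channels were counted in the same way. Of 19 listed partners, 17 were on the array and 12 were tested. At an unadjusted p under 0.05 in limma, 1 was higher and 0 lower, beside 3.75% and 2.7% of all genes tested. The median log2 fold change of the 9 on all 4 arrays was -0.01, beside -0.05 for all genes on all 4 arrays. Stac2, an adaptor of L-type channels, gave 606 and 557 in sEphB4-Alb tumors, against 210.5 and 331 in PBS tumors, at 0.59 with an SE of 0.22 and an unadjusted p of 0.048 (limma). Its log2 fold change lay between 0.36 and 0.79 without any 1 tumor. With all 4 tumors but no moderation of the variances, its unadjusted p was 0.151 (linear model). Dpp6, an auxiliary subunit of Kcnd channels, gave 2549 and 1672 in sEphB4-Alb tumors and 360 and 1367 in PBS tumors. Its log2 fold change was 0.87 with an unadjusted p of 0.192 (limma), and 1.55 without PBS tumor 2. Of 43 other channels, pumps and calcium-store genes, 36 were on the array and 24 tested. By the same rule 1 was higher and 0 lower, beside the same 3.75% and 2.7%. The median of the 19 on all 4 arrays was 0.03, beside -0.05 for all such genes. Cftr, the chloride channel of duct cells, passed the limit with sEphB4-Alb alone (173 and 225 in sEphB4-Alb tumors, against 124 and 117.5 in PBS tumors) and was at least 1.34-fold higher (adjusted p of 0.743, limma). It entered the test only through the sEphB4-Alb tumors, where it is brighter, and it is the 1 gene counted as higher in its list. Atp1b1, a subunit of the sodium pump, gave 29753 and 29930 in sEphB4-Alb tumors, against 8265 and 19696 in PBS tumors. Its log2 fold change was 0.65 with an unadjusted p of 0.0796 (limma), and 0.96 without PBS tumor 2.

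Marker lists of other cell types were followed on both scales, since most genes were higher with sEphB4-Alb in deposited signal. The summed signal of 14 acinar markers, 12 of them above background on all 4 arrays and 0 on none, was 15934 and 118722 in sEphB4-Alb tumors, against 2518 and 19833 in PBS tumors, and their median normalised log2 value was 8.98 and 11.92, against 7.41 and 10.11. Acinar levels thus overlapped between groups and were high in sEphB4-Alb tumor 2. Markers of neurons and Schwann cells, in which several of these channels are also used, had sums of 28658 and 25443 in sEphB4-Alb tumors, against 10896 and 23387 in PBS tumors, and medians of 6.52 and 6.58, against 6.40 and 6.76, which overlapped. Of these 8 markers, 2 were on all 4 arrays and 3 on none, Gfap and S100b among them. Smooth muscle and pericyte markers had sums of 4130.4 and 4377 in sEphB4-Alb tumors, against 2164 and 2491 in PBS tumors, and medians of 6.68 and 6.69, against 6.63 and 6.65, with 6 of 11 on all 4 arrays and Myh11 and Lmod1 on none.

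The medians of duct markers (5 of 10 on all 4 arrays, 0 on none) were 7.47 and 7.83 in sEphB4-Alb tumors, against 6.97 and 7.004 in PBS tumors, and their sums were 4241 and 5673, against 1540.1 and 2806. Those of macrophage markers (11 of 14 on all 4 arrays, Itgam and Fcer1g on none) were 7.89 and 7.83 in sEphB4-Alb tumors, against 7.48 and 7.28 in PBS tumors, with sums of 11955 and 13119.5, against 7934 and 5810.4. Endothelial markers (6 of 9 on all 4 arrays, Kdr on none) had medians of 7.26 and 7.21 in sEphB4-Alb tumors, against 6.67 and 7.07 in PBS tumors, with sums of 3105 and 3843, against 1767 and 2638. T-cell markers (2 of 8 on all 4 arrays, Cd8a and Ptprcap on none) had medians of 6.75 and 6.56 in sEphB4-Alb tumors, against 6.22 and 6.23 in PBS tumors, with sums of 1455 and 1432, against 1081 and 1138. Red blood cell markers (3 of 7 on all 4 arrays, 0 on none) were highest in PBS tumor 1, at 6.53 and 6.56 in sEphB4-Alb tumors and 7.17 and 6.31 in PBS tumors, with sums of 3729 and 8321 in sEphB4-Alb tumors and 13460.2 and 5266 in PBS tumors. The part of these cells in the channel results was not tested.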

How the data were processed

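Total RNA was isolated with Trizol and RNeasy and labelled as biotinylated cRNA. The authors deposited linear intensity values for 4 arrays, with 1 value per symbol, so that probes of a gene cannot be compared. These are neither background-subtracted nor scaled. The software is not given in the sources used here. Another table has 8 value columns that could be tied to no single tumor and were left out. The deposited intensity values went through normexp (offset 50, signals alone), quantile normalisation and log2. The test was limma 3.58.1 (lmFit, eBayes; R 4.3.3), with 2 residual degrees of freedom, and p-values adjusted by Benjamini-Hochberg over the 10675 tested genes. The background limit (the mode of signals below each array's 75th percentile) was chosen after the data were seen. "At least" folds set the brighter group's mean against a floor in the dimmer one, per array the lowest normalised value that passed the limit or the gene's own where that was higher. All 104 symbols matched RefSeq on GRCm38.p6, used for names and promoter windows. The members and lists were chosen with earlier results of these data known. Named genes were those with an unadjusted p under 0.05, the 12 with the largest change among those above background on all 4 arrays, islet channel genes on all 4 arrays, and genes above background on both arrays of 1 group and none of the other. Of the other lists, named genes were those past p 0.05 and up to 4 more by size, of which Dpp6 and Atp1b1 are given. Cacna1d and Cacna1c fall outside the rule and were chosen after their values were seen. Some genes that the rule would name are not reported here. The number of arrays limits the precision. The code was tested on simulated data.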

Additional observations from a re-analysis of the deposited data

How the results depend on the processing

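The counts of channel genes moved as follows, over 54 tested genes unless stated. With median scaling, 2 were higher past 2-fold (3.7%, against 2.7% of all genes) and 1 lower at an unadjusted p under 0.05 (1.85%, against 0.234%). Under the same scaling 16 were higher without overlap (29.6%, against 36.6% of all genes). With no normalization between arrays, these were 3 (5.56%, against 10.1%), 0 (against 0.0375%) and 40 (74.1%, against 73.6%). There, 1 was lower without overlap (1.85%, against 0.478%). The median of the channel genes above background on all 4 arrays was 0.15 and 0.48 under these settings. Without background correction 1 was lower at an unadjusted p under 0.05 (1.85%, against 3.18% of all genes), and with the replicate block 1 was (1.85%, against 1.77%). Without moderation 0 were higher past 2-fold (against 0.3% of all genes) and 1 higher at an unadjusted p under 0.05 (1.85%, against 3.1%). An intensity trend with a robust prior gave 4 higher at that p (7.41%, against 4.37%). With no filter on dim genes 17 of 104 were lower without overlap (16.3%, against 20.7% of all genes). With genes on all 4 arrays 2 of 29 were higher (6.9%, against 14.8%) and 4 lower (13.8%, against 23.3%) without overlap. With a stricter limit 4 of 40 were lower without overlap (10%, against 20.6%). A background limit found on the log2 scale, chosen after seeing the data, gave 1 of 35 lower at an unadjusted p under 0.05 (2.86%, against 2.51%). It gave 6 higher (17.1%, against 18%) and 4 lower (11.4%, against 21.1%) without overlap. At 1.5-fold, 2 were higher, Kcne1l and Cacna1h, and 1 lower, Kcnc4. Leaving out 1 tumor, with 56 to 60 channel genes tested, gave 13 to 29 higher and 12 to 23 lower without overlap. These were 22.8% to 51.8% and 20% to 40.4%, against 30.8% to 39.5% and 29.3% to 43.6% of all genes. The medians then ran from -0.081 to 0.0014. In these fits a lone tumor is assumed to vary like the other group, so counts by p-value are not given. Relative to the median gene, Kcnh2, Kcnh6 and Kcnk1 turned to 0.11, 0.010 and 0.13 under median scaling and under no normalization. Leaving out 1 tumor, the log2 fold change turned sign within ranges of -0.12 to 0.055 for Cacnb2, -2.22 to 0.024 for Cacng5, -0.34 to 0.18 for Kcnk1, -0.67 to 0.071 for Kcnk12, -0.021 to 0.66 for Kcnu1, -0.24 to 0.045 for Kcnh2, -0.52 to 0.37 for Kcnma1, -0.053 to 0.19 for Cacna2d1, -0.29 to 0.12 for Kcnh6 and -0.063 to 0.63 for Kcnip3. The cause was not tested in any case. The labels do not pair the tumors. Across the 10675 tested genes, the deviations of sEphB4-Alb tumor 1 and PBS tumor 1 from their group means correlated at 0.041 (Pearson's r). This value cannot decide whether the tumors were paired. The stricter limit leaves 26 channel genes on all 4 arrays and 46 on none, the log2-scale limit 26 and 54. The exact Mann-Whitney test cannot give a p below 0.333 with 2 tumors against 2.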
